A study of Mus musculus with 4 samples.

Results

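The CTCF peaks described here are those on mouse chromosome 17 with a midpoint from 24 to 38 Mb of the mm9 assembly, a block of 14 Mb that includes the major histocompatibility complex (MHC). The block held 357 of the 15109 peaks in the deposited list. Its MHC part, taken as 33.5 to 37.5 Mb, held 68 of them, and the other 10 Mb held 289. Members were chosen by position alone, but the block was proposed with earlier results of the same list known, so its fullness is a description and not a finding. Hippocampal chromatin of C57/Bl mice was sequenced after immunoprecipitation with an anti-CTCF antibody (ChIP-seq, 2 libraries) or without it (input, 2 libraries). All 4 libraries shared strain and tissue, and the labels gave no treatment, genotype, age or sex. One list was called on the combined libraries, so no peak has a value per mouse, a replicate error or a known read depth, and no group of samples could be compared by a test.

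CTCF recognises a long DNA motif through its zinc fingers, stops the cohesin complex as it extrudes chromatin loops, and so marks many loop anchors and domain borders. The MHC carries the class I and class II genes, whose products present peptides to T cells, with the class III genes between them. In human B cells CTCF is known to bind between class II genes and to take part in loops there. In the brain, class II genes are known mainly from microglia, and class I genes are also expressed by neurons. In the RefSeq gene table, which is on another assembly (GRCm38.p6), 49 of 51 genes listed for the MHC and its flanks were found as protein-coding genes of chromosome 17, H2-Ea and Trim27 being the others. Their order from the centromere side begins with Daxx, a histone chaperone, then Tapbp, which helps load peptide onto class I molecules, and the class I gene H2-K1. Next come the class II genes, from H2-Oa to H2-Eb1, with Brd2, a chromatin reader, and the peptide transporter genes Tap1 and Tap2 among them, and then Notch4. The class III complement gene C4b and the cytokine gene Tnf follow. The class I genes H2-D1, H2-Q and H2-T come after these, and then Mog, which encodes a myelin protein, and Gabbr1, a GABA receptor subunit. The coordinates of that table were not transferred to mm9, so no peak below carries a gene name, and the label MHC rests on the position range only. No mm9 sequence was used here, so no peak sequence is shown.

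Taken as a whole, the block was dense in CTCF peaks, though not evenly so. It held 46.6% of the 766 peaks of chromosome 17 in 15.5% of the span between the first and last peak of the chromosome. Its density was 25.5 peaks per Mb (95% Poisson interval 22.9 to 28.3), against 5.35 per Mb (4.84 to 5.89) over the rest of the chromosome, 4.77 times as high. The stretch before the block had 4.64 peaks per Mb and the stretch after it 5.61. These intervals cover counting error only and treat peaks as independent, which neighbouring peaks are not.

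The edges of the block differed. The last peak before 24 Mb, at chr17:23991069-23991618, scored 121, and the first inside, at chr17:24130399-24131318, scored 805. At the other end the last peak of the block lay at chr17:37209542-37210090 with a score of 177. No further peak was listed for 3.81 Mb, up to chr17:41016915-41017557, which scored 90. The final 790 kb of the block were therefore empty, and every peak outside the MHC part lay between 24 and 33.5 Mb.

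**Figure D1:**
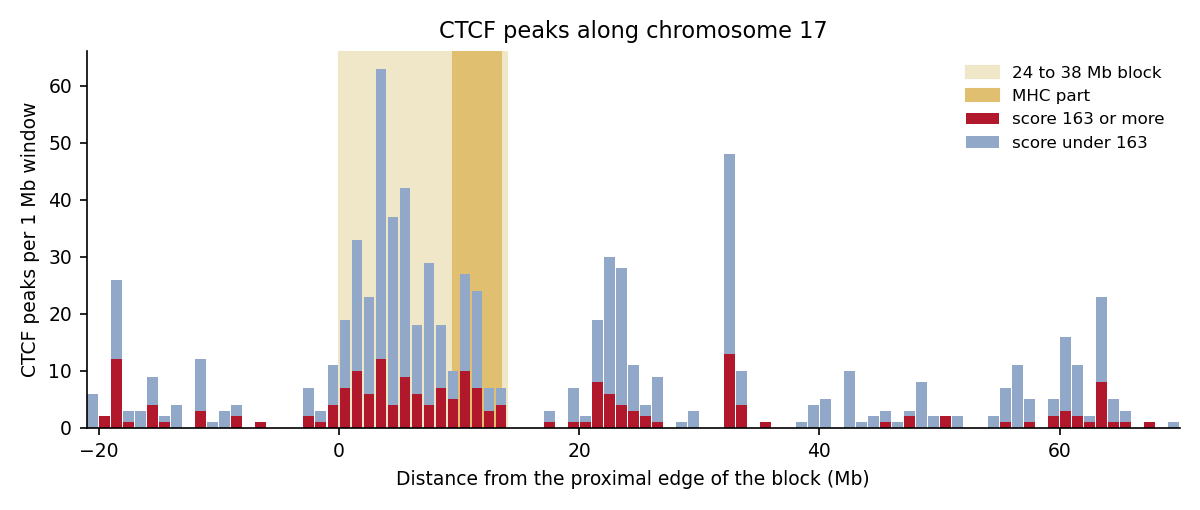
CTCF peaks in 1 Mb windows along chromosome 17 (y axis, peaks per window) by distance from the proximal edge of the block (x axis, Mb), with peaks scoring 163 or more in red, weaker peaks in blue, the block shaded light and its MHC part dark. The 14 windows of the block hold 7 to 63 peaks each, and 21 of the 75 other full windows hold none.

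Within the block, fullness varied 9-fold between 1 Mb windows. From the centromere side, the 14 windows held 19, 33, 23, 63, 37, 42, 18, 29, 18, 10, 27, 24, 7 and 7 peaks. None was empty, whereas 21 of the 75 other full windows of the chromosome were, and their median count was 2 against 23.5 in the block. The fullest stretch was the run of 3 windows from 27 to 30 Mb, with 63, 37 and 42 peaks. The first of these ranked 3 among the 2525 full windows of the list. The MHC windows from 34 to 36 Mb, with 27 and 24 peaks, formed a second, lower rise. At both sides of that rise counts were low, with 10 peaks from 33 to 34 Mb and 7 in each window from 36 to 38 Mb.

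The MHC part was sparser than the rest of the block. How much sparser varied with the score: the gap was wide among weaker peaks and narrow at the upper quartile of scores. Among the very strongest, the peaks were too few to tell. Its density was 17 peaks per Mb (13.2 to 21.6) against 28.9 per Mb (25.7 to 32.4) in the other 10 Mb, a ratio of 0.588. The peak score is the authors' own value with no stated scale, and peaks scoring 163 or more, the upper quartile of the list, are called strong here. By this rule 25.4% of all 15109 peaks were strong. The density of strong peaks was 6.50 per Mb (4.25 to 9.52) in the MHC part and 6.80 per Mb (5.28 to 8.62) in the rest of the block, a ratio of 0.956. Weaker peaks had densities of 10.5 and 22.1 per Mb, a ratio of 0.475. At scores of 569 or more, which 5.0% of the list reached, the MHC part held 5 peaks and the rest of the block 21. These were 1.25 and 2.1 per Mb, a ratio of 0.595 that rests on only 5 MHC peaks. Its own interval is not given. The 95% counting interval of the 0.956 ratio, 0.584 to 1.52, also holds the ratio of 0.588 for all peaks. Near-equal densities were thus seen at the score of 163, but they are not separated from the lower density of all peaks. Whether they hold at higher cut-offs was not resolved. The MHC part thus held 19.0% of the block's peaks but 27.7% of its strong ones, in 28.6% of its length. Set against the rest of chromosome 17, the MHC part had 4.78 times the density of strong peaks and 2.63 times that of weaker ones. These ratios were not tested, since a single list offers no replicate to test against.

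**Figure D2:**
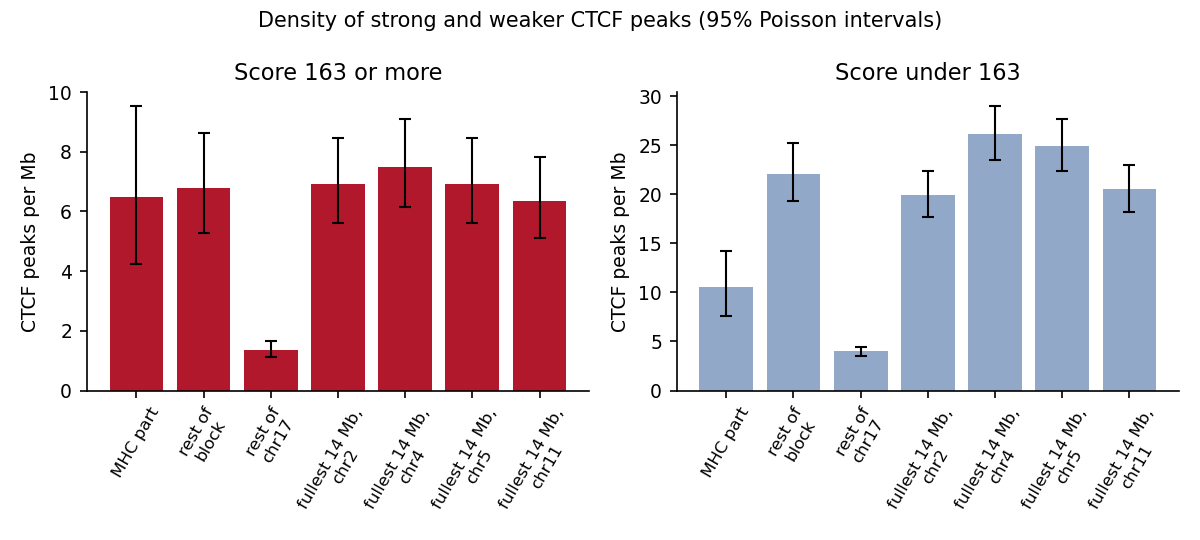
Density of strong peaks (left, score 163 or more) and weaker peaks (right) in peaks per Mb, with exact 95% Poisson intervals for counting error, in the MHC part, the rest of the block, the rest of chromosome 17 and the fullest 14 Mb of chromosomes 2, 4, 5 and 11. Strong peaks stand at 6.50 and 6.80 per Mb in the MHC part and the rest of the block, and weaker ones at 10.5 and 22.1.

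By median and by share of strong peaks, scores in the block as a whole were close to those of the rest of the chromosome. The median score was 90 in the block, 92 in the rest of chromosome 17 and 93 in the whole list. Strong peaks made up 94 of the 357 (26.3%, exact binomial 95% interval 21.8 to 31.2), against 25.4% of the 409 other peaks of the chromosome. Both shares are near the 25.4% of the whole list. At the bottom of the scale, 24.9% of block peaks scored under 62, against 21.0% in the rest of the chromosome and 21.1% of the list. Inside the block the MHC part had the higher median score and the larger share of strong peaks. Its median was 106.5 against 90 in the rest of the block, and 26 of its 68 peaks were strong (38.2%, interval 26.7 to 50.8), against 68 of 289 (23.5%, 18.8 to 28.9). The 2 intervals overlap. The stretch of chromosome 17 before the block had a median of 116, with 33 of its 97 peaks strong (34.02%, interval 24.7 to 44.3). The stretch after the block had a median of 90, with 71 of 312 strong (22.76%, 18.2 to 27.8). A raised median and a larger strong share were therefore not seen in the MHC part alone. These differences were not tested. Peaks scoring 569 or more made up 7.35% of the MHC part (5 of 68) and 7.27% of the rest of the block (21 of 289). With only 5 MHC peaks, these 2 shares cannot be told apart or called equal. In the block as a whole the share was 7.28%, against 5.38% in the rest of the chromosome and 5.0% of the list. That difference was not tested.

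**Figure D3:**
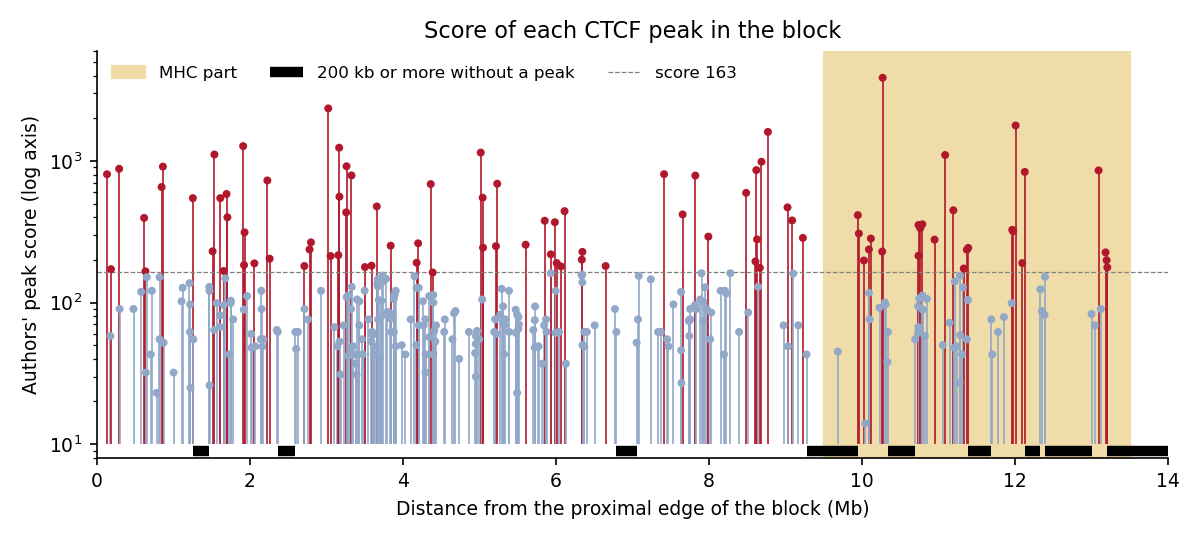
Score of each of the 357 peaks (y axis, log scale) by distance from the proximal edge of the block (x axis, Mb). Strong peaks are red and weaker ones blue, and the MHC part is shaded. Black bars lie under the longest stretches without a peak. Stretches of 203.8 kb after chr17:30130573-30130916 and 203.5 kb after chr17:32771685-32772557 carry no bar. Both exceed 200 kb and lie outside the MHC part. The peak scoring 3868 stands in the MHC part, and most of that part's length lies under black bars.

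The strongest CTCF peak of the block lay in the MHC part at chr17:34271498-34273147. It scored 3868, second in the whole list, and was 1650 bp wide. Its nearest neighbour, 6.16 kb away, scored 229, and the next score in the block was 2349. The next strongest peak of the MHC part lay at chr17:36010315-36011429, with a score of 1780 and its nearest neighbour 32.3 kb away. The third, at chr17:35088733-35090038, scored 1101 and lay 30.7 kb from a peak scoring 50. Peaks at chr17:37094964-37095951 and chr17:36130391-36131268 scored 857 and 837. Apart from the first, these strong MHC peaks had 30.1 kb or more to the nearest peak. After them the scores fell away, the remaining 5 of the 10 strongest scoring 335 to 448, at starts 35196490, 33947202, 34790557, 34740894 and 34763624.

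Outside the MHC, strong peaks were spread over the block. The highest, at chr17:27022893-27023606, scored 2349 with a width of only 714 bp and stood in the fullest window, 30.5 kb from the nearest peak. That window held 3 more of the 20 strongest, at starts 27165017, 27261872 and 27326433, with scores of 1240, 917 and 790. Each of these had a neighbour within 10 kb, the closest at 1.60 kb with a score of 109. The peak at chr17:32771685-32772557 scored 1604 and had its nearest neighbour 84.0 kb away at chr17:32687784-32688461, which scored 987. Another peak, at chr17:32619807-32620716, scored 861, so that 3 of the 20 strongest lay in a window with only 18 peaks in all. Further strong peaks were found at chr17:25910291-25911054 (score 1272), chr17:29016476-29017817 (score 1145) and chr17:25534162-25535865 (score 1110). From 24 to 25 Mb, peaks starting at 24861019, 24288470 and 24130399 scored 912, 880 and 805. From 31 to 32 Mb, those starting at 31413722 and 31822256 scored 806 and 788.

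Every 1 Mb window of the block held a peak scoring at least 442. The lowest of these window maxima were 442 at chr17:30112428-30113441, 470 at chr17:33027813-33028781 and 686 at chr17:28362812-28363518. The window from 26 to 27 Mb had its maximum, 728, at chr17:26226952-26227588. The widest peak, at chr17:27165017-27166892, measured 1876 bp. Widths were otherwise much as elsewhere, with a median of 473 bp in the block and in the whole list, and 458 bp in the rest of chromosome 17. Peaks wider than 1 kb made up 6.72% of the block and 5.75% of the list.

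Within the block, counts per window varied relatively less for strong peaks than for all peaks. Windows held 3 to 12 strong peaks, against totals of 7 to 63, and the coefficient of variation over the 14 windows was 0.402 for strong peaks and 0.593 for all peaks. In the other windows of the chromosome the order was reversed, with 1.82 for strong peaks and 1.56 for all. The whole list gave 1.71 and 1.56. In both of these sets the median window held 0 strong peaks, and counts that low raise the coefficient through counting error. How much of the reversal comes from this was not tested. In the block, the 6 windows with under 20 peaks had 32 strong peaks among 79 (40.5%), and the 8 fuller windows 62 among 278 (22.3%). The sparsest windows had the largest shares, 57.1% from 37 to 38 Mb and 50% from 33 to 34 Mb. The smallest shares, 10.8% and 13.8%, were found from 28 to 29 Mb and from 31 to 32 Mb. Across the 14 windows the rank correlation of count and strong share was -0.85, and it stayed between -0.89 and -0.82 when any single window was left out. The count is the denominator of the share, and the 8 windows with 20 or more peaks alone gave -0.48. In the other windows of the chromosome with 5 or more peaks the value was 0.24 (n = 24), and over such windows of the whole list it was 0.037 (n = 867). These correlations describe neighbouring windows of 1 list, and the difference between them was not tested.

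**Figure D4:**
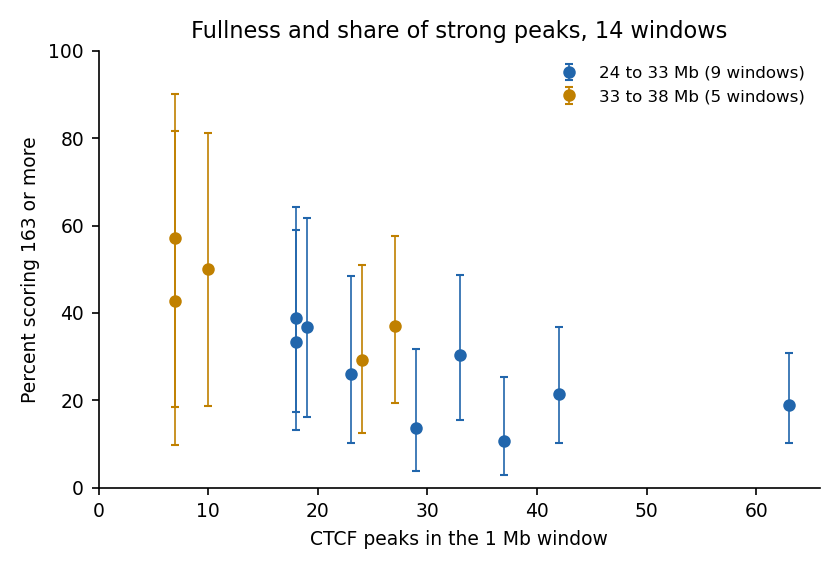
Percent of peaks scoring 163 or more (y axis, with exact 95% binomial intervals for counting error) against the number of peaks (x axis) in each of the 14 windows of 1 Mb, those from 33 to 38 Mb in ochre. Windows with under 20 peaks lie at 33.3% or above, and the window with 63 peaks lies at 19.0%.

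Peaks of the block lay close to one another. The median distance from a peak midpoint to the nearest other midpoint was 7.94 kb in the block and 18.5 kb in the rest of the chromosome. A second peak was found at most 10 kb away for 208 of them (58.3%, interval 53.0 to 63.4), against 35.0% (30.3 to 39.8) in the rest of the chromosome and 42.9% of the whole list. A shorter distance follows in part from the higher density, and how much was not tested. The MHC part was intermediate, with a median of 9.81 kb and a share of 51.5%, against 7.27 kb and 59.9% in the rest of the block. Close neighbours were a little less frequent for strong peaks (51.1%) than for weaker ones (60.8%) in the block, the difference being untested. Taken alone, strong peaks of the block had a median of 24.8 kb to the next strong peak, against 86.9 kb in the rest of the chromosome. In the MHC part this distance was 20.05 kb, and in the rest of the block 25.2 kb.

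**Figure D5:**
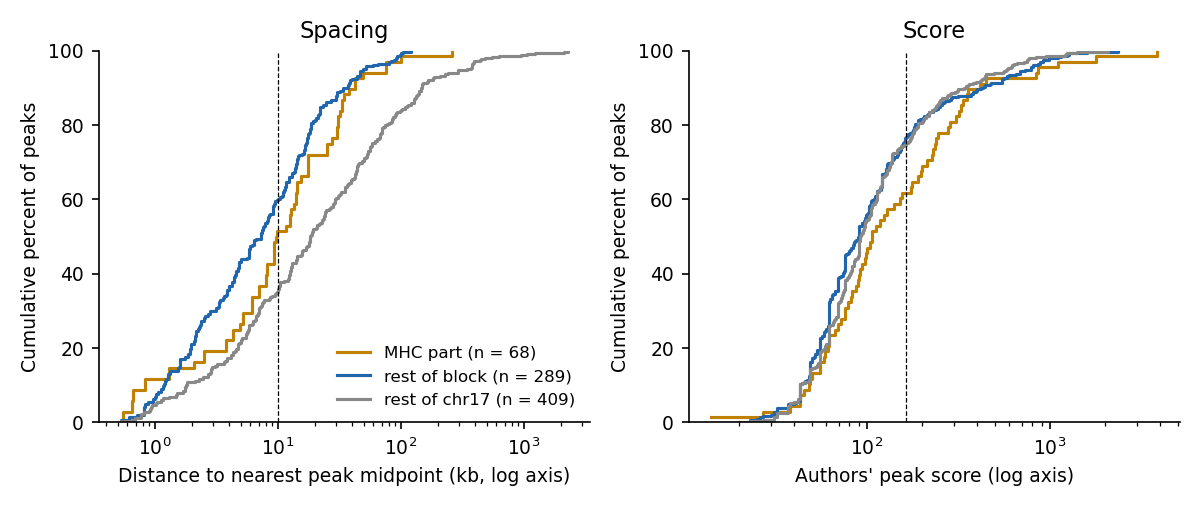
Cumulative percent of peaks (y axes) by distance to the nearest peak midpoint (left, kb, log axis, dashed line at 10 kb) and by score (right, log axis, dashed line at 163) in the MHC part (68 peaks), the rest of the block (289) and the rest of chromosome 17 (409). At 10 kb the curves stand at 51.5%, 59.9% and 35.0%.

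Some close neighbours had under 1 kb between them. Of the block's peaks, 53 (14.8%) lay in 25 runs with under 1 kb between members, against 8.07% in the rest of the chromosome and 11.6% of the list. Only 2 runs held more than a pair. The longer, at chr17:30344046-30348111, joined 4 peaks over 4.07 kb with scores of 157, 139, 228 and 50. The other, at chr17:28395287-28398746, joined 3 peaks scoring 113, 43 and 100. The MHC part had 5 runs, all pairs. At the wider limit of 10 kb between members, the longest chains held 6 peaks each. One of these, at chr17:34734720-34751545, was in the MHC part, with scores of 61 to 353. The others were at chr17:27657431-27684472, with a highest score of 477, and at chr17:30334688-30348111. The fullest 100 kb windows of the block held 10 peaks, 2 of them between 27 and 28 Mb and 1 from 34700001 to 34800000 in the MHC part.

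Long stretches without a peak were a larger part of the MHC than of the rest of the block. Of its 40 windows of 100 kb, 16 were empty (40%), against 19 of 100 in the rest of the block and 73.7% in the rest of the chromosome. The longest stretch between peaks inside the block, 609 kb, ran from 36394745 to 37003754 in the MHC part. The next ran from 33276940 to 33686181, across the proximal MHC edge, and measured 409 kb. Further stretches of the MHC part measured 355 kb from 34341737, 301 kb from 35391240, 261 kb from 33686550 and 204 kb from 36131269. Wholly outside the MHC the longest between peaks was 263 kb, from 30791455 to 31054546. The empty final 790 kb of the block ran across the distal MHC edge and on past the end of the block. Peak-free stretches of 200 kb or more, this empty end included, covered 55.1% of the MHC part and 18.3% of the rest of the block.

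These stretches divide the MHC peaks into 5 groups and a lone peak at 33686182, a division made after the positions had been seen. The first group, from 33947202 to 34341736, held 15 peaks, 7 of them strong, with the peak scoring 3868 among them. The second, from 34696799 to 35391239, was the fullest with 31 peaks, 10 of them strong. The third, from 35692115 to 36131268, held 10 peaks, 5 of them strong, with the peaks scoring 1780 and 837 at its distal end. A group of 4 peaks from 36335180 to 36394744 had no strong member, its highest score being 152. The last, from 37003755 to 37210090, held 7 peaks, 4 of them strong. Outside the stretches of 200 kb or more, the MHC part had 37.9 peaks per Mb over 1.79 Mb and the rest of the block 35.4 per Mb over 8.17 Mb. For strong peaks alone these densities were 14.5 and 8.32 per Mb. This count leaves out length because it is empty, 55.1% of the MHC part against 18.3% of the rest of the block. The MHC densities therefore rise more by construction, and no conclusion is drawn from either difference. The count is a description only, and neither difference was tested. Many class I genes and the olfactory receptor genes near them are close copies of each other, and how reads that match several copies were treated is not given in the sources used here. An empty stretch therefore does not show that CTCF was absent.

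Compared with the fullest 14 Mb of other chromosomes, the block was among the denser ones. Only 28 of the 2265 overlapping 14 Mb windows of the list, 1 of them shifted by 1 Mb on chromosome 17 itself, held more peaks. The 4 other chromosomes with a fuller stretch were 4, 5, 2 and 11, with 471, 446, 376 and 376 peaks. Strong peaks made up 22.3%, 21.7%, 25.8% and 23.7% of these, against 26.3% in the chromosome 17 block. The share with a neighbour within 10 kb was 63.1%, 62.1%, 60.4% and 59.8%, against 58.3%. The MHC part had 10.5 weaker peaks per Mb, against 26.1, 24.9, 19.9 and 20.5 in these stretches. Strong peaks of the MHC part, at 6.50 per Mb, stood beside 7.50, 6.93, 6.93 and 6.36. The stretches were picked for holding the most peaks of their chromosome, so their high densities follow in part from that choice. None of these differences was tested.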

How the data were processed

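The measured material was CTCF ChIP-seq from mouse hippocampus, with 2 ChIP and 2 input libraries. Per the submitters' processing notes, cutadapt and MACS2 version 2.0.10.20131216 were used with build mm9. Per the file header, 1 narrowPeak-style list joins both ChIP libraries against both inputs. The score deposited by the authors has no stated scale and was used to describe, rank and filter peaks within the list. The aligner, threshold and treatment of duplicate or multiply matching reads are not given in the sources used, and read depth is unknown.

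Starts were converted to positions counted from 1, and peaks were assigned by midpoint. Lengths outside the block were taken from the first to the last peak of the chromosome. Intervals are exact Poisson or Clopper-Pearson at 95%. Calculations used Python 3.11.15, pandas 2.3.3 and scipy 1.17.1, tested on a simulated list. No test was run, since the list has no replicates. The members and lists were chosen with earlier results of these data known. Named peaks were the 20 strongest of the block, the 10 strongest of the MHC part, window maxima, the widest peaks, the longest empty stretches and the runs with most peaks. The 5-group division, the 6-peak chains and the fullest 100 kb windows were chosen after values were seen. The split of windows at 20 peaks, the correlations across windows and the coefficients of variation were not planned beforehand. Alternatives covered score filters, joining of peaks, bounds, thresholds and distances. Gene order came from RefSeq (GRCm38.p6), and no mm9 genome or annotation was used here.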

Additional observations from a re-analysis of the deposited data

How the results depend on the processing

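The density ratio of the block to the rest of chromosome 17 was 4.77 and ranged from 4.31 (block from 23 to 39 Mb) to 4.98 (25 to 37 Mb) over its 5 alternatives. The ratio of the MHC part to the rest of the block, 0.588, stayed between 0.479 and 0.735 under 6 of its 7 alternatives. Among scores of 163 or more it was 0.956. Excluding the window from 27 to 28 Mb, an alternative added after seeing the data, gave 0.677. For strong peaks alone, the MHC ratio ranged from 0.595 (scores of 569 or more, 5 MHC peaks) to 0.991 over alternatives also added later.

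The strong share of the block, 26.3%, became 49.3% at the median score and 7.28% at the 95th percentile, against 49.9% and 5.38% in the rest of the chromosome. That of the MHC part became 58.8% and 7.35%, against 47.1% and 7.27% in the rest of the block. The share of block peaks with close neighbours was 39.2% among scores of 93 or more, 19.1% among scores of 163 or more and 50.2% after joining, against 21.1%, 9.62% and 29.9% in the rest of the chromosome. It was 40.1% within 5 kb and 94.96% within 50 kb, against 21.3% and 70.9%. These shares move by construction, and the block stayed above the rest of the chromosome in each. No paired analysis was possible because no library has values of its own, and leaving out a replicate was not run for the same reason.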

Other observations

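Peak width and score parted in a few block peaks, chosen here after their values were seen. The peak at chr17:24650301-24652118 was the second widest of the block, at 1818 bp, but scored only 151. The peak scoring 2349, in contrast, was 714 bp wide. Over the 357 peaks the rank correlation of score and width was 0.60, and over the whole list 0.59, both given as descriptions.

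The weakest peak of the block, at chr17:34045412-34045836, scored 14, where the lowest score of the list was 13. It lay in the first MHC group, which also holds the strongest peak of the block.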
